A study of Mus musculus with 16 samples.

Results

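The genes described here are those that fill, empty and refill the calcium store of the endoplasmic reticulum (ER): the pump genes Atp2a2 and Atp2a3, the release channel genes Ryr2, Itpr1, Itpr2 and Itpr3, and the store-operated entry genes Stim1, Stim2 and Orai1. They were taken from the array by name, using the probe sets that the platform annotation assigns to 1 gene, and the brightest probe set over all 16 arrays stood for each gene. Of the 9 genes, 8 had such a probe set among the 18193 genes measured, with 23 probe sets in all, and Itpr1 was not analysed here.

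Islets came from Co-Insm1 mutant mice (RIPcreER; Insm1flox/lacZ) and from litter-matched control mice (RIPcreER; Insm1flox/+), with 8 preparations and 1 Affymetrix Mouse430_2 array for each preparation in both groups. Insm1 encodes a zinc finger protein that regulates transcription in endocrine cells. All animals, of mixed CBA/J, C57BL/6 and 129/ola descent, carried the tamoxifen-inducible RIPcreER recombinase, driven by the rat insulin promoter and so meant to act in beta cells, and all were given 25 mg tamoxifen with a release of 21 days at an age of 4 to 5 weeks. Islets were collected at 8 to 12 weeks. Controls thus also had a floxed allele and the recombinase, and what set the groups apart was the second allele, lacZ in mutants and wild type in controls, in every cell of the animal. Values are log2 signals, differences are given as mutant minus control (8 arrays a group), and a gene was called when limma's test gave an adjusted p (Benjamini-Hochberg over all genes) under 0.05. Islets are a mixture of cells, so fewer beta cells and less RNA per beta cell cannot be told apart.

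Calcium is pumped into the ER by SERCA pumps against a steep gradient, is released through ryanodine receptors and IP3 receptors, and is replaced from outside the cell when STIM proteins sense an emptied store and open Orai channels at the plasma membrane. In beta cells the store shapes the calcium oscillations that drive insulin release, answers to acetylcholine through IP3, and supplies the calcium that chaperones need to fold proinsulin. SERCA2, from Atp2a2, is the pump of nearly all cells, whereas SERCA3, from Atp2a3, is a pump of lower calcium affinity found in beta cells and in blood and some epithelial cells.

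Both pump genes and the sensor gene Stim2 were lower in mutant islets, and the release channels, Stim1 and Orai1 were not called. Of the 8 genes measured, 3 were called lower, against 4.66% of all genes, and 0 were called higher, against 4.1% of all genes. The median difference was −0.20 over the 8 genes and −0.01 over all genes, and the genes were chosen with earlier results of these data known. All 3 calls were lost in the fit that held the replicate block and the acinar and immune marker means at once, where the differences were −0.41 for Atp2a2, −0.56 for Atp2a3 and −0.15 for Stim2 (limma adjusted p = 0.632, 0.486 and 0.968) and 6 of all genes were called.

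The islet hormones that define the tissue were near the top of the scale on every array: Ins2 lay between 15.34 and 15.39, Gcg between 14.76 and 15.17 and Sst between 13.94 and 14.47. Array medians lay between 6.29 and 6.35. Insm1 itself ranged from 10.71 to 11.30 with a median of 11.08 in mutants, against 10.94 to 11.60 with a median of 11.24 in controls, and did not pass the test (difference −0.25 ± 0.11 (SE), adjusted p = 0.182). The place of its probes relative to the deleted part was not known here, and this signal checks no label. The mean of 22 acinar markers was lower in the mutant in 8 of 8 same-numbered pairs, at 8.20 to 13.26 in mutants and 11.28 to 13.72 in controls. Of these 22 genes, 1 was called lower, and 21 with the replicate number as a block. The mean of 20 immune-cell markers was 7.43 to 10.12 in mutants and 7.37 to 8.97 in controls, with its highest values on mutant replicates 1 and 3 (10.12 and 9.58).

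Promoter windows from RefSeq (GRCm38.p6, 250 bases before to 50 after the start, gene strand) were at hand for 7 of the 8 genes, and of the 3 called genes for Atp2a3 and Stim2, which are shown because they moved the same way. Capitals mark GGGCGG, the core of the GC box bound by Sp factors, or its reverse complement. Overlapping matches were counted apart.
Atp2a3 promoter, chr11:72960919-72961218, plus strand: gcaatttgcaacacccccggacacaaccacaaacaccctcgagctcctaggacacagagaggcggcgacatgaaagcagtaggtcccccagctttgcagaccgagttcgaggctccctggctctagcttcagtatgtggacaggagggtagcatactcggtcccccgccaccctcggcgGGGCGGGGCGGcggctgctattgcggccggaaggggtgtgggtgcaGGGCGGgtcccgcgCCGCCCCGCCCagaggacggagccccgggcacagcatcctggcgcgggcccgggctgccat
Stim2 promoter, chr5:53998273-53998572, plus strand: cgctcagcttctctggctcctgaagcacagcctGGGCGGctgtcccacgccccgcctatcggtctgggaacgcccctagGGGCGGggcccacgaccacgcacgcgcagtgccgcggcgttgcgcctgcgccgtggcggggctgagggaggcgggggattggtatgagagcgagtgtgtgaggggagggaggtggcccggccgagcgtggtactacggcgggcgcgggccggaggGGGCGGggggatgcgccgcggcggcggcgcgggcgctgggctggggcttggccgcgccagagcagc
The Atp2a3 window held 5 matches and the Stim2 window 3, at 68.3% and 76.7% G and C. All 7 windows held the motif, called genes and uncalled genes alike, as did 35.7% of the 32851 windows of all genes. The E-box CAGATG, of the kind bound by Neurod1, was in 0 of the 7 windows and in 17.2% of all windows. The forkhead motifs TGTTTAC and TGTTTGC, of the kind bound by Foxa2, were also in 0 of the 7, and in 3.65% and 5.07% of all windows. Both strands were searched for each motif.

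Atp2a2, the gene of the general ER calcium pump, was lower in mutant islets by every probe set. Its brightest probe set had a lowest, median and highest signal of 12.84, 13.20 and 13.24 in mutants, against 13.41, 13.52 and 13.70 in controls. The groups did not overlap, which was true of 1.09% of all genes in this direction. The mean was 13.12 ± 0.15 in mutants and 13.54 ± 0.11 in controls (SD, n = 8 each), a difference of −0.42 ± 0.07 (SE, limma adjusted p = 0.000536), or a signal 1.34-fold lower. The difference was below 0 in 8 of 8 pairs, between −0.63 and −0.28.

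The other probe sets of Atp2a2 gave the same direction with unequal sizes. All 6 were called lower, against 3.62% of the 34945 probe sets tested as rows of their own. The 6 read 1 gene on the same arrays, so their calls are not independent of each other. The 3 brightest differed by −0.42, −0.39 and −0.47, and the 3 dimmest by −0.70, −0.66 and −0.76. In the dimmest, mutants had 6.93 at the lowest, 7.09 at the median and 7.50 at the highest, and controls had 7.55, 7.77 and 8.44. In 3 of the 6 (the brightest and the 2 dimmest) the groups did not overlap, against 0.858% of all probe sets in this direction. With the probe sets averaged, the difference was −0.57 (adjusted p = 1.16e-06). Which transcript forms each probe set reads was not known here, and whether the probe sets differ from each other was not tested.

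Atp2a3, the gene of the lower-affinity pump SERCA3, was lower by a similar amount but with overlapping groups. Mutants had a lowest, median and highest signal of 11.29, 11.49 and 11.87, against 11.49, 11.91 and 12.05 in controls. Of the mutants, 4 lay below every control, and mutant replicate 3 was the highest of its group. The mean was 11.49 ± 0.18 in mutants and 11.88 ± 0.19 in controls (SD), a difference of −0.38 ± 0.09 (SE, limma adjusted p = 0.0102), a 1.31-fold lower signal. It was lower in 8 of 8 pairs, by between −0.56 and −0.15. The dimmer probe set read 8.41 ± 0.22 in mutants and 8.71 ± 0.28 in controls, and its difference of −0.30 was called only with the replicate block (adjusted p = 0.0145, and 0.154 without it), a fit in which 7.58% of all probe sets were called lower.

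**Figure D1:**
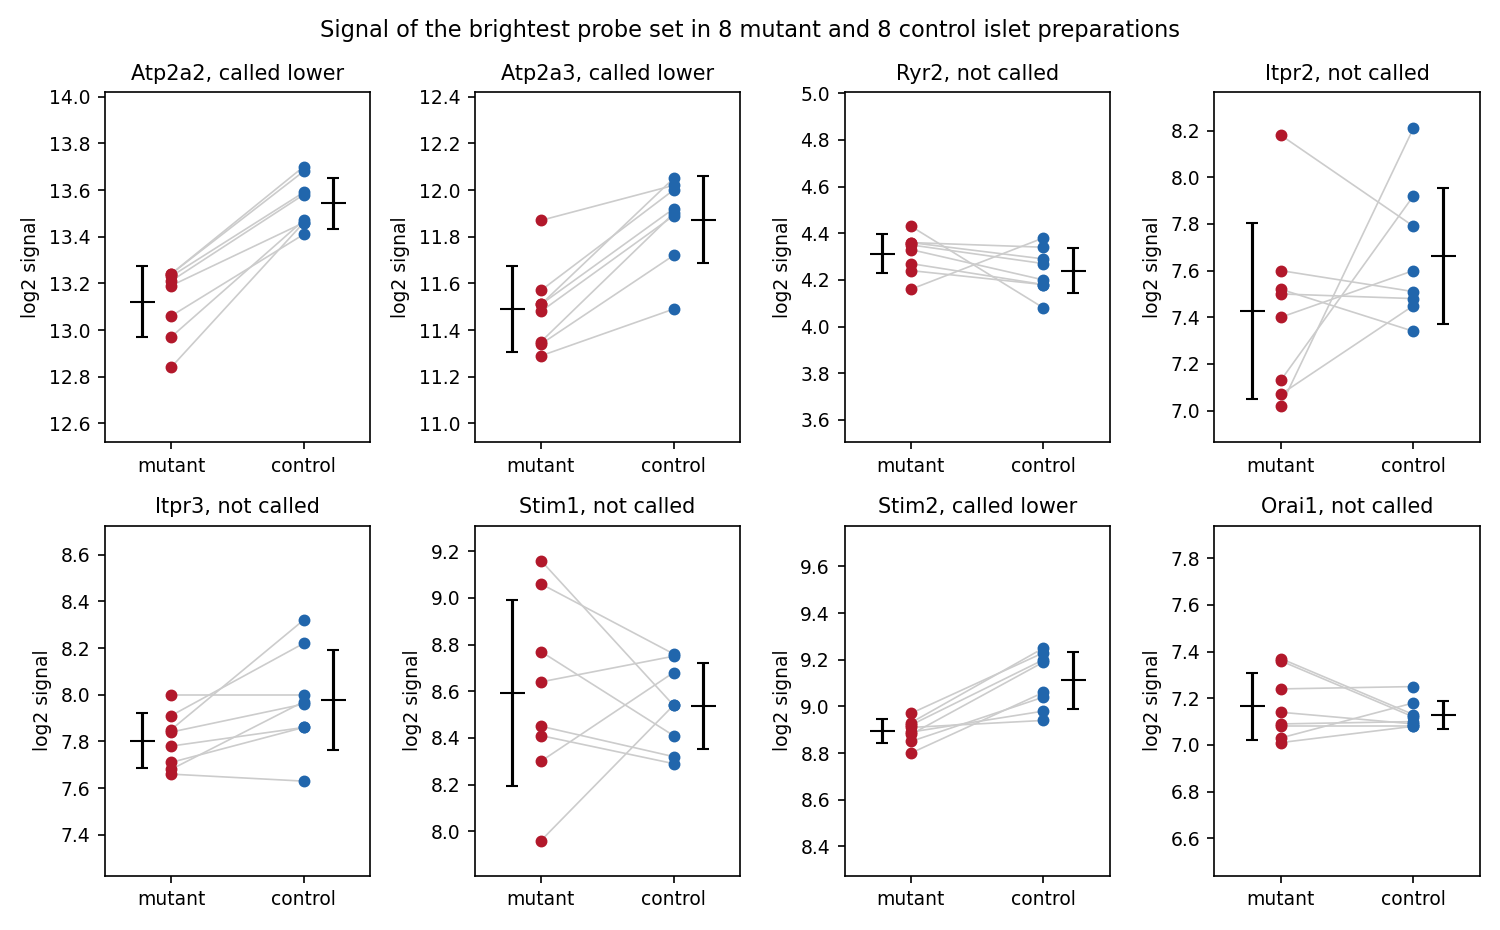
Log2 signal (y axis, each panel spanning the same 1.5 log2 units) of the brightest probe set of each gene in mutant and control preparations, with grey lines joining arrays of the same replicate number and black bars showing mean ± SD (n = 8 each). Atp2a2 mutants lie at 13.24 or below and controls at 13.41 or above, Atp2a3 and Stim2 are lower in every pair, and the other 5 genes overlap widely.

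The 3′ minus 5′ signal over control probe sets for beta-actin and Gapdh, a sign of RNA quality that is larger in more degraded RNA, was lower in mutants, as the pumps were. It was 0.28 to 0.47 in mutants and 0.33 to 0.57 in controls, and lower in the mutant in 8 of 8 pairs. With it as a covariate Atp2a2 differed by −0.39 (adjusted p = 0.00613) and Atp2a3 by −0.30 (adjusted p = 0.0842), so the call of Atp2a3 was lost. The mean of 10 beta-cell markers was also lower in every pair (11.45 to 11.84 in mutants, 12.23 to 12.53 in controls), with 8 of the 10 called lower. These 8 were Slc2a2, Ucn3, Pdx1, Nkx6-1, G6pc2, Slc30a8, Glp1r and Trpm5. Whether the mean of this list follows the share of beta cells was not tested. Within the list the hormone genes had like means, Ins2 at 15.37 in mutants and 15.36 in controls and Iapp at 15.16 and 15.15. Both lay near the highest value on any array (15.39). The mean of 7 alpha-cell markers was higher in 8 of 8 pairs (10.13 to 10.64 in mutants, 9.57 to 9.94 in controls), with 4 of the 7 called higher. The mean of 6 delta-cell and PP-cell markers was higher in 7 of 8 pairs (11.38 to 11.61 in mutants, 11.11 to 11.52 in controls), and that of 5 ductal markers was lower in 7 of 8 (6.53 to 7.03 in mutants, 6.89 to 7.35 in controls). The part of these endocrine and ductal shifts in the fall of the pumps and Stim2 was not tested. With the acinar mean as a covariate the differences were −0.54 for Atp2a2 and −0.38 for Atp2a3, and with the immune mean −0.38 and −0.43, all called (adjusted p up to 0.0276).

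Among the release channels, none of the 3 genes measured was called. Ryr2, the cardiac-type ryanodine receptor gene, gave a signal far below every array median, with 4.16, 4.34 and 4.43 in mutants (lowest, median and highest) and 4.08, 4.23 and 4.38 in controls. The groups overlapped, and the difference was 0.07 (95% interval −0.03 to 0.18, adjusted p = 0.448). Its other probe set was as dim, at 4.26 ± 0.26 in mutants and 4.12 ± 0.17 in controls. No detection calls were used, so whether the transcript was present was not tested, and the interval is that of a signal this low. The other ryanodine receptor genes did not pass the test either: Ryr1, the skeletal muscle form, differed by 0.02 and Ryr3, a form of brain and smooth muscle, by 0.03 (adjusted p = 0.923 and 0.905), both with mean signals below the array medians.

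Itpr3, an IP3 receptor gene of secretory cells, had 7.66, 7.81 and 8.00 in mutants and 7.63, 7.96 and 8.32 in controls. The mutants all lay within the range of the controls. Its difference of −0.17 (95% interval −0.35 to 0.01, adjusted p = 0.264) was below 0 in 6 of 8 pairs.

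Itpr2, a second IP3 receptor gene, which acinar cells also use, varied widely between arrays, with an SD of 0.38 in mutants and 0.29 in controls. Mutants had 7.02, 7.45 and 8.18 and controls 7.34, 7.56 and 8.21. The difference was −0.23 (95% interval −0.56 to 0.09, adjusted p = 0.436), with the mutant lower in 4 of 8 pairs and pair differences from −1.19 to 0.39. The highest mutant was replicate 1, which also had the highest immune and acinar marker means of its group (10.12 and 13.26). Without pairs 1 to 3, in which the immune mean was higher in the mutant by 1.14 to 1.96, the difference was −0.51 (adjusted p = 0.0944). With the immune mean as a covariate it was −0.38 (adjusted p = 0.0831), and with the acinar mean −0.08 (adjusted p = 0.837). None of the 6 Itpr2 probe sets was called, and their differences lay between −0.29 and 0.09. The brightest and number 3 by brightness carry the suffix of sets that may read related transcripts.

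**Figure D2:**
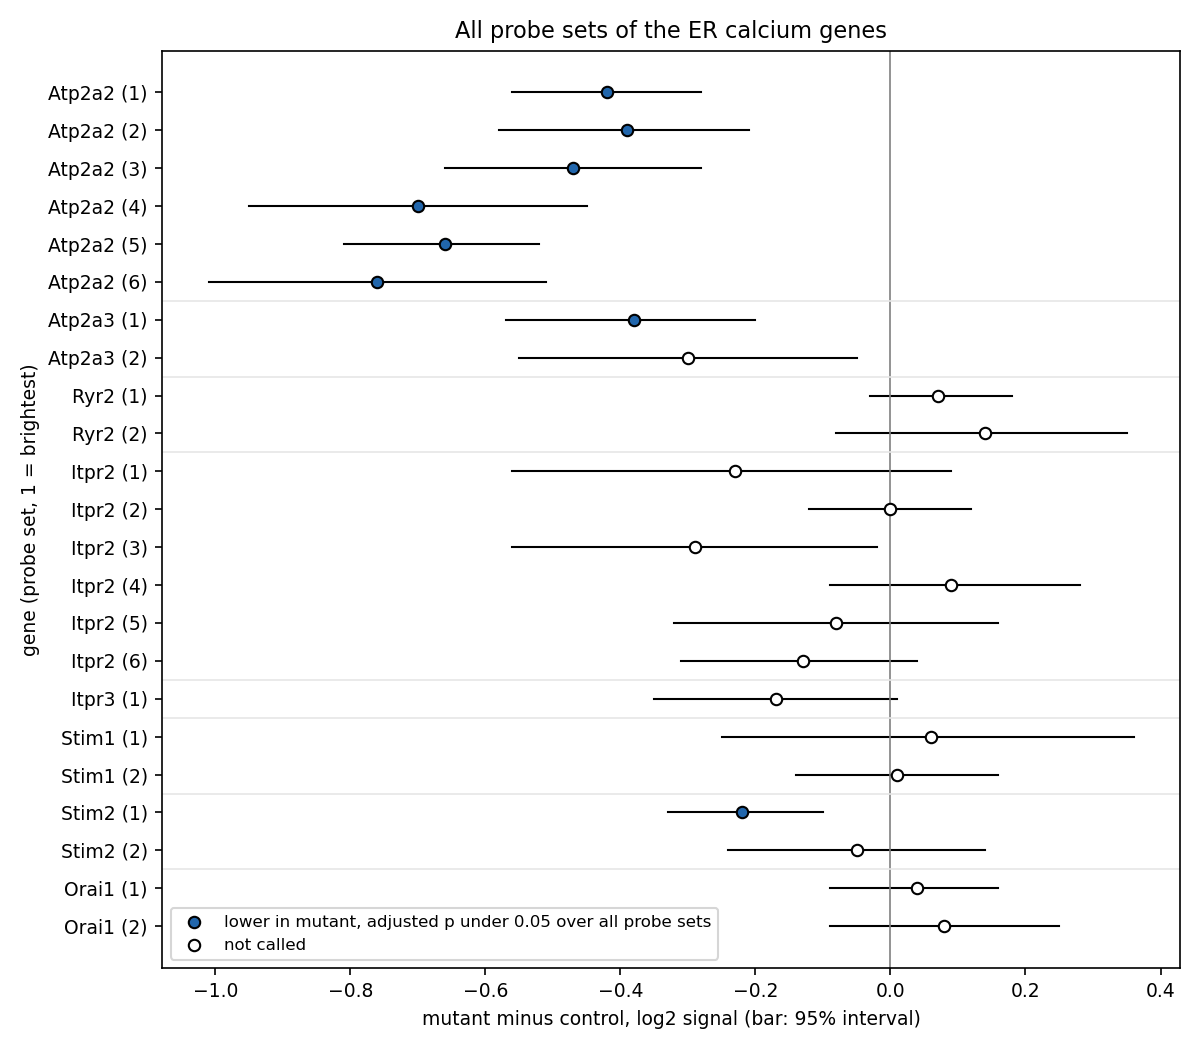
Difference in log2 signal, mutant minus control (x axis), for all 23 probe sets, ordered within each gene by brightness (1 is the brightest), with points for the estimate and bars for the 95% interval; filled points passed the test over all probe sets. All 6 Atp2a2 sets lie between −0.76 and −0.39, and the only other filled points are the brighter sets of Atp2a3 (−0.38) and Stim2 (−0.22).

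Of the store-operated entry genes, Stim2 was lower and Stim1 and Orai1 were not called. STIM2 is the sensor that answers to small falls in store calcium and sets its resting level, STIM1 the one that drives entry after strong emptying. Stim2 had 8.80, 8.90 and 8.97 in mutants, against 8.94, 9.13 and 9.25 in controls (lowest, median and highest). Of the mutants, 7 lay below every control. The mean was 8.89 ± 0.05 in mutants and 9.11 ± 0.12 in controls (SD), a difference of −0.22 ± 0.05 (SE, limma adjusted p = 0.0153), a 1.16-fold lower signal, in 8 of 8 pairs. This call was the least stable of the 3: it was lost without pairs 1 to 3 (−0.24, adjusted p = 0.0694) and when both probe sets were averaged (−0.13, adjusted p = 0.163). The dimmer set, at 5.77 ± 0.19 in mutants and 5.82 ± 0.18 in controls, lay below the array medians.

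Stim1 had 7.96, 8.54 and 9.16 in mutants and 8.29, 8.54 and 8.76 in controls. The medians were alike, while the mutants spread about the controls on both sides: 3 mutants lay above every control and 1 below. The difference was 0.06 (95% interval −0.25 to 0.36, adjusted p = 0.877), an interval that holds the difference of Stim2. Its dimmer probe set, with a smaller spread, differed by 0.01 (95% interval −0.14 to 0.16). That dimmer set carries the suffix of sets that may also read unrelated transcripts, so its narrower interval may not be that of Stim1 alone.

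Orai1, the pore subunit, had 7.01, 7.11 and 7.37 in mutants and 7.08, 7.11 and 7.25 in controls. The groups overlapped, and the difference was 0.04 (95% interval −0.09 to 0.16, adjusted p = 0.804). Its paralogs Orai2 and Orai3 differed by −0.04 and −0.11 (adjusted p = 0.881 and 0.287). The remaining SERCA gene, Atp2a1 of fast skeletal muscle, differed by −0.12 (adjusted p = 0.259), and the 5 skeletal muscle markers listed had a mean of 5.28 to 5.42 in mutants and 5.27 to 5.37 in controls, below the array medians.

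**Figure D3:**
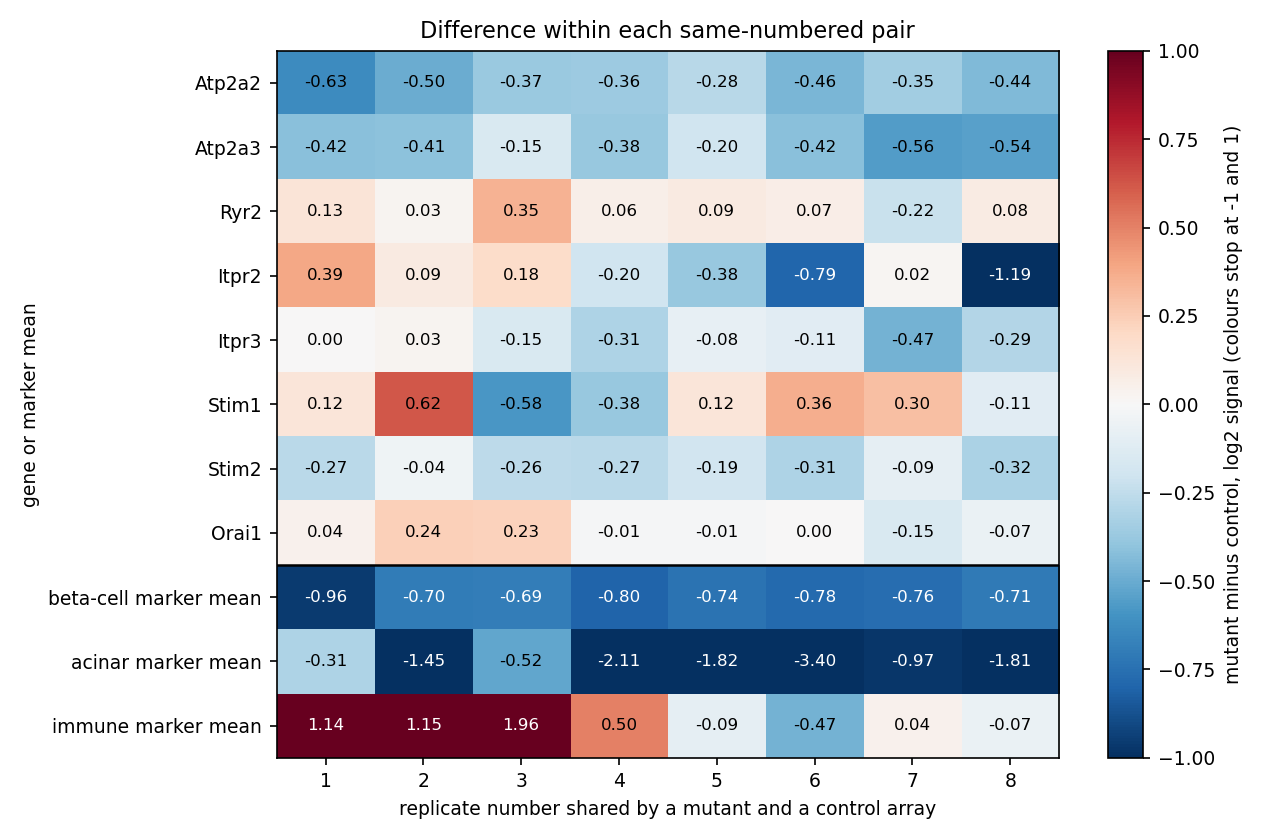
Mutant minus control difference in log2 signal (colour and printed value) within each same-numbered pair (columns), for the 8 ER calcium genes and, under the black line, the means of the beta-cell, acinar and immune marker lists. Atp2a2, Atp2a3 and Stim2 are below 0 in all 8 pairs, as are the beta-cell and acinar means, while the immune mean is above 1 in pairs 1 to 3.

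Other genes of calcium handling were read from 10 lists, with 124 genes measured besides the 8. Of these, 12 were called lower and 6 higher, and 25 and 9 with the replicate block, beside 4.66% and 4.1% of all genes, and 9.71% and 7.88% with the block. The median difference was −0.04, against −0.01 for all genes. Fkbp1b, which encodes calstabin-2, a partner of the ryanodine receptor, was 2.80-fold lower, at 9.13 ± 0.24 in mutants and 10.61 ± 0.31 in controls (−1.48 ± 0.13 (SE), adjusted p = 1.27e-06), without overlap. Within the same list of 17, Casq2, encoding the luminal calcium buffer calsequestrin-2, also fell, by 0.61 on the log2 scale (adjusted p = 0.00977, from a probe set that may read related transcripts). Fkbp1b and Casq2 were each read by 1 probe set only. The kinase gene Camk2d and the phosphodiesterase gene Pde4d rose by 0.51 and 0.49 (adjusted p = 0.00029 and 0.00443). Tested as rows of their own, 3 of 7 probe sets of Camk2d and 2 of 2 of Pde4d were called higher. The other 13 were not called, and with the block 1 of them, Asph, was called higher (0.25, adjusted p = 0.0302 with the block and 0.289 without it).

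Of 16 genes that regulate IP3 receptors or remove IP3, 6 fell and 1 rose, with 9 and 1 with the block. Itpkb, a kinase that turns IP3 into IP4, was 10.19 ± 0.17 in mutants and 10.80 ± 0.13 in controls (−0.61 ± 0.07 (SE), adjusted p = 5.23e-05), without overlap. Of its 2 probe sets, 1 was called. Itprid2 fell by 0.36 on the log2 scale and Rnf170, which encodes a ubiquitin ligase that marks active IP3 receptors for breakdown, fell by 0.31 on that scale (adjusted p = 0.00231 and 0.0092). Of the 3 Rnf170 probe sets, 1 was called, and Itprid2 had 1 probe set only. Itprip, encoding a protein that binds IP3 receptors, was the gene that rose (0.50, adjusted p = 0.00441). Its means, 6.29 in mutants and 5.79 in controls, lay at or below the array medians, and 1 of its 2 probe sets was called. Of 16 genes of IP3 formation, 1 was called: Plch1, a phospholipase C gene with 1 probe set, was lower by −0.61 ± 0.09 (SE, adjusted p = 0.000527). The muscarinic receptor gene Chrm3, the Gq gene Gnaq and the other 13 were not called.

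Of 13 genes of calcium-binding proteins in the ER lumen, the reticulocalbin genes Rcn3 and Rcn2 rose (0.52 and 0.26, adjusted p = 0.00656 and 0.0202). Rcn2 was read from a probe set that may read related transcripts, and 1 of its 2 probe sets was called. Rcn3 had 1 probe set only. The main luminal buffer gene Calr differed by −0.21 and the chaperone gene Hspa5 by −0.08 (adjusted p = 0.114 and 0.738). With the block Calr was called lower (adjusted p = 0.0144), and the list held 3 genes called higher and 2 called lower, the other lower one being the chaperone gene Canx (−0.12, adjusted p = 0.0325 with the block). Another list held 11 regulators of the pump and of ER calcium leak, among them Saraf and Stimate, which act on STIM proteins. Of the 11, 1 was called, Sri (sorcin, a calcium-binding protein that acts on ryanodine receptors and SERCA), which rose by 0.26 (adjusted p = 0.0275). Of the 3 Sri probe sets, 1 was called. With the block Mrln, which encodes the SERCA inhibitor myoregulin, was also called, and was lower (−0.31, adjusted p = 0.017 with the block and 0.158 without it). Phospholamban and sarcolipin, the classical SERCA inhibitors of muscle, had probe sets below the array medians and were not called (Pln −0.11, Sln 0.11, adjusted p = 0.471 and 0.507). Of 12 regulators of store-operated entry 0 were called, and 4 were lower with the block, among them Trpc1, a cation channel gene (−0.41, adjusted p = 0.000176 with the block and 0.0886 without it).

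Outside the ER, the Golgi calcium pump gene Atp2c1 fell (−0.39, adjusted p = 0.0118), with 2 of its 5 probe sets called. It was the only one called of 13 genes listed under export through the plasma membrane and Golgi uptake. These included Slc8b1, the gene of a mitochondrial exchanger. The mitochondrial uniporter gene Mcu differed by −0.05 (adjusted p = 0.6), and of the 13 genes of that list 1 was called, Vapb, an ER protein that tethers mitochondria (−0.54, adjusted p = 0.000763). Of the 3 Vapb probe sets, 1 was called. With the block this list had 3 genes called lower, Vapb, Vdac1 and Mfn2, and 1 called higher, Smdt1. Of 8 endolysosomal channel and related genes, Mcoln3, a mucolipin channel gene, was lower, at 5.49 ± 0.22 in mutants and 6.64 ± 0.37 in controls (adjusted p = 5.45e-05), without overlap. Its mutant mean lay below the array medians, so no fold is given, and 1 of its 2 probe sets was called. With the block 2 genes of that list were called lower, the other being Jpt2 (−0.23, adjusted p = 0.02 with the block and 0.375 without it).

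**Figure D4:**
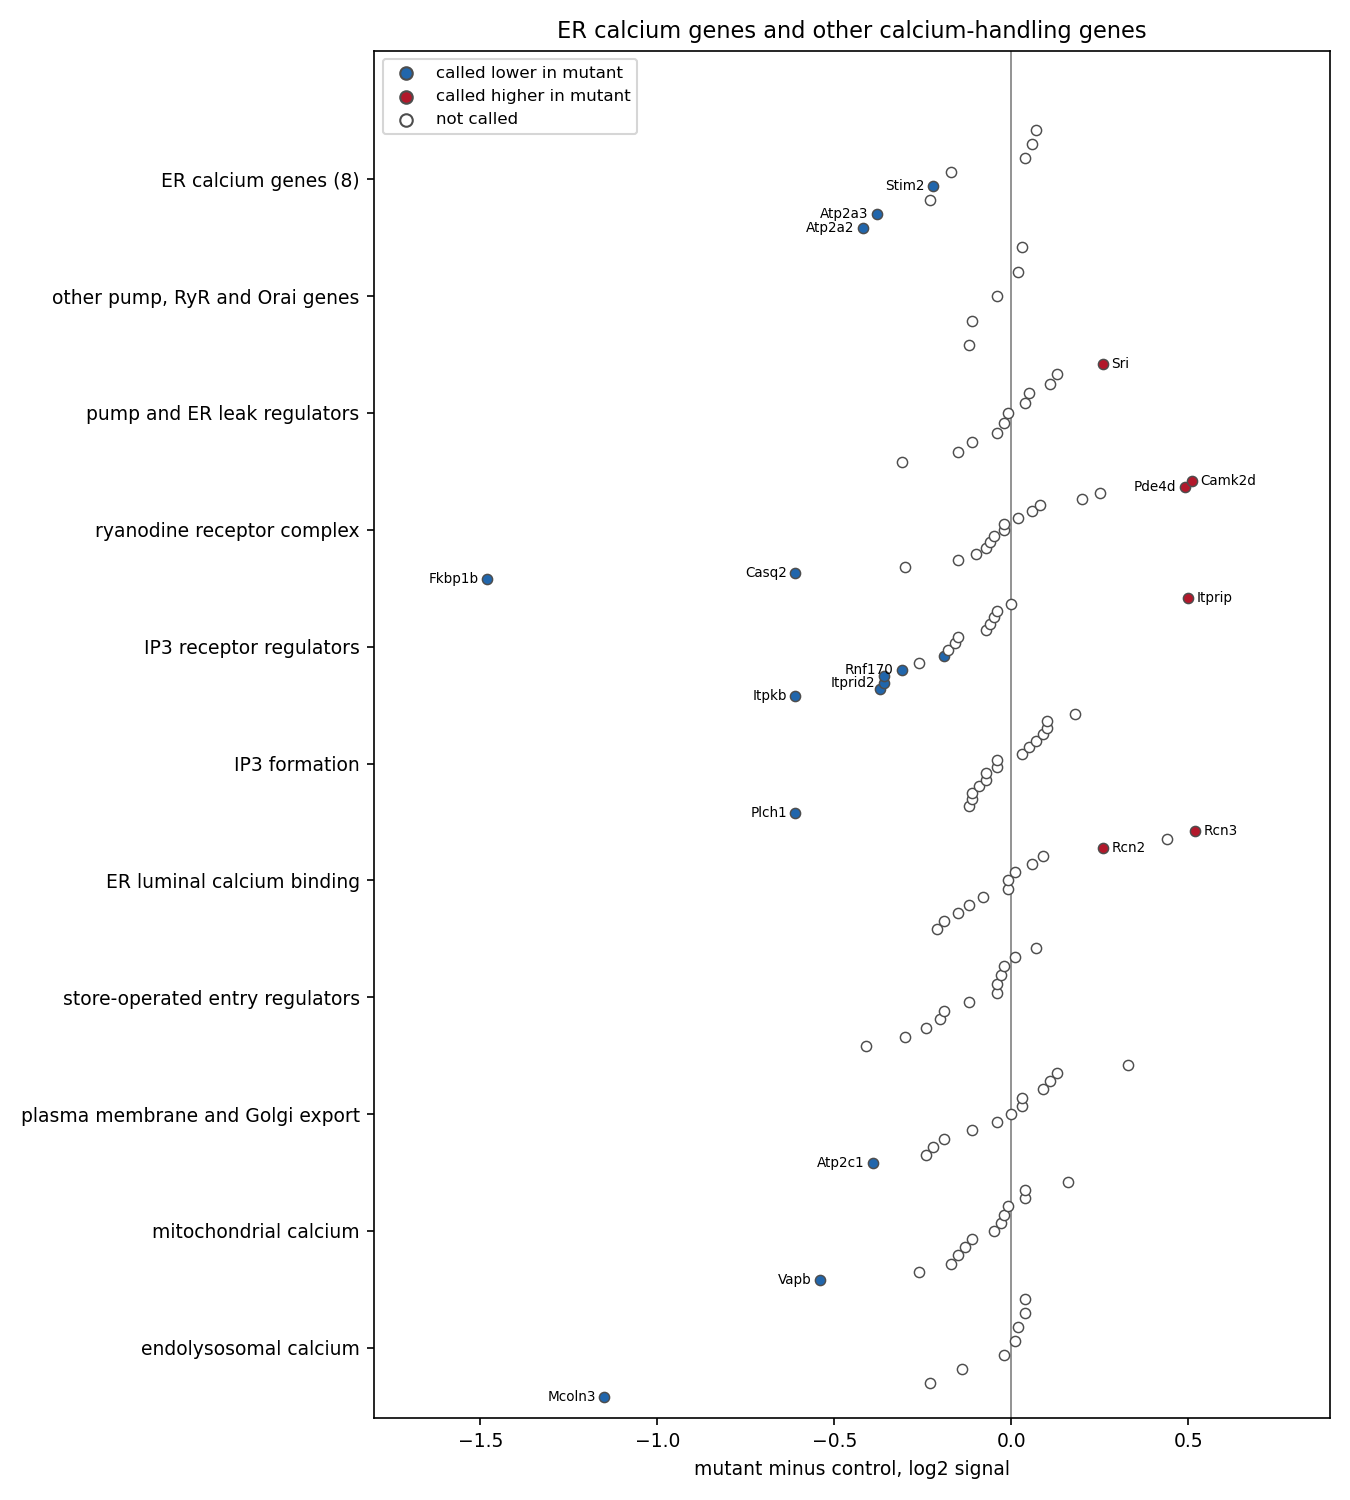
Mutant minus control difference in log2 signal (x axis) for the 8 ER calcium genes and for the genes of 10 other calcium-handling lists (rows), 1 point per gene; filled points passed the test over all genes, and the names are those given in the text. The pumps lie at −0.42 and −0.38, Fkbp1b at −1.48 and Mcoln3 at −1.15, and most points of every list are unfilled. The median is −0.04 over the genes of the 10 lists together and −0.17 for the IP3 receptor regulators.

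The genes most like each called gene over the 16 arrays were found by the root mean square difference of log2 signals, each gene centred on its own mean. For Atp2a2, which varied about its mean by 0.245 in this measure, they were 2310034G01Rik (0.060), Rfk, the riboflavin kinase gene (0.077), and Tmem9b (0.084). For Atp2a3, with 0.259 about its mean, they were Tuba3b (0.112), 1700096K18Rik (0.117) and Armc4 (0.119). For Stim2, with 0.140, they were Cdk8 (0.087), Nek4 (0.090) and Pla2g2a (0.092). Armc4 (means of 4.47 in mutants and 4.80 in controls) and Pla2g2a (5.57 and 5.74) lay below the array medians. Of the genes named here, 1700096K18Rik, Cdk8 and Pla2g2a were not called (limma adjusted p = 0.0823, 0.0946 and 0.102). These distances describe similar size and order of values on the same arrays and carry no test.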

How the data were processed

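The authors deposited 1 log2 signal per probe set and array. The label protocols give Trizol extraction and the 3′ IVT Express kit from 150 ng of RNA, and the background correction, summarisation and normalisation were not known here. The log base was taken from the range of values (2.74 to 15.39), and no scaling was added. Of 45101 probe sets, 64 control sets were left out and 34945 named 1 gene, with symbols updated through RefSeq gene identifiers for 34741. Genes were tested with limma 3.58.1 in R 4.3.3 (lmFit, eBayes with a mean-variance trend, two-sided), with genotype as the only term, and every probe set was also tested as its own row. Only the fit with genotype as its 1 term was tested on simulated data, with values independent between arrays. Correlation between arrays, the replicate block and the covariates were not simulated.

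The genes, lists and tests were chosen with earlier results of these data known. From each list, called genes were named up to 4, lowest adjusted p first, and the list genes named that were uncalled without the block were chosen after their values were seen. Deviations from group means correlated within all 8 same-numbered pairs (0.237 to 0.735, median −0.098 between other numbers), so the numbers were taken as pairs, and a fit with them as a block was an alternative, besides 13 others and 16 fits that each left out 1 array. For 6 of the 8 mutant arrays the control of the same number was the one with the highest correlation. The labels do not say that arrays of 1 number were littermates. Arrays correlated at 0.971 to 0.993, and their number limits the precision. No filter on dim genes was applied.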

Additional observations from a re-analysis of the deposited data

How the results depend on the processing

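With the replicate block, 3200 genes were called, against 1594 without it, and the calls of all 8 ER calcium genes were unchanged, while the other calcium-handling genes called lower numbered 25 against 12. Those numbered 21 with the acinar mean as a covariate. Without pairs 1 to 3, 828 genes were called in all, 7 of the list genes were lower, and 2 of the 8 ER calcium genes were. With the block plus both marker means, acinar and immune, as covariates, 6 genes were called in all, with 0 of the 8 and 0 list genes higher and 0 lower. The differences there were −0.41 for Atp2a2, −0.56 for Atp2a3 and −0.15 for Stim2 (adjusted p = 0.632, 0.486 and 0.968), and the cause was not tested. With 1 array left out, 3 of the 8 were lower in all 16 fits, between 1324 and 1645 genes were called, and 11 to 13 list genes were lower and 5 to 6 higher. The call of Atp2a2 was kept under 13 of 14 other alternatives, of Atp2a3 under 12 and of Stim2 under 11. None of the 5 uncalled genes became called under any alternative run, but their small differences could change sign: Ryr2 to −0.17 and Orai1 to −0.22 with the block plus both marker means, Orai1 to −0.05 without pairs 1 to 3, and Stim1 to −0.02 and −0.01 without mutant replicate 2 or 7 (range −0.02 to 0.15 with 1 array left out), all uncalled. Ryr2, with a mean below the lowest array median, was not tested without dim genes. No array of any of the 23 probe sets stood apart from its group by Dixon's test (46 groups). Signals near background limit what can be read for Ryr2, the dimmer Stim2 probe set and the 3 dimmest Itpr2 probe sets. The dimmer Orai1 probe set (6.11 in mutants and 6.03 in controls) also lay below the array medians. Itpr2 probe set number 3 by brightness (6.10 and 6.38) lay near them.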
